A study of Mus musculus with 2 samples.

Results

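The miR-29 family was followed in small RNA from the heart mitochondria of mice, with 1 library from a control and 1 from an STZ-treated heart. STZ (streptozotocin) is a toxin of pancreatic beta cells that is used to induce diabetes, and the study concerns diabetic cardiomyopathy, Ago2 and the translation of mitochondrial genes. The labels give no strain, age, dose or time, and do not say whether hearts were pooled. Family entries were taken by name: every listed entry called miR-29a, miR-29b or miR-29c, on either arm of the precursor and under a human (hsa) or mouse (mmu) name. This rule found 8 of the 851 named entries, among 1018 entries in all, and the same 8 in both libraries. Of these, 7 carry human names and 1 a mouse name, although the animals are mice. With 1 library per group there was no replicate check and no p-value, so "higher" and "lower" compare these libraries and not the conditions.

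miRNAs are short RNAs cut from hairpin precursors, and each hairpin can yield a strand from its 5′ arm (5p) and a strand from its 3′ arm (3p). The strand that is kept guides an Argonaute protein such as Ago2 to messages that pair with its seed, bases 2 to 8. The miR-29 family is known for pairing with messages of the extracellular matrix, among them collagens, elastin and fibrillin, and in mouse hearts it has been described as restraining fibrosis. Most of its known targets are read in the cytosol. No library of another cell fraction was analysed here, so reads from inside mitochondria and reads carried along with them cannot be told apart.

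The 3p strands of the family share a seed, and their RefSeq sequences (mouse, build GRCm38.p6) are shown with that seed in capitals because the paralogs differ only downstream of it.
miR-29a-3p: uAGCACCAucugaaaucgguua
miR-29c-3p: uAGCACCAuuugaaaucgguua
miR-29b-3p: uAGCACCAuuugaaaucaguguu
miR-29a-3p and miR-29c-3p are 22 bases long and miR-29b-3p 23. Counted from 1 at the 5′ end, miR-29c-3p differs from miR-29a-3p by C10U alone, so 21 of 22 positions are identical. miR-29b-3p differs from miR-29a-3p by C10U, G18A, U21G and A22U and has an extra base at its end. Among the 1679 mature mouse miRNA names in the RefSeq table, these 3 are the only carriers of this seed. U at positions 9 to 11, which miR-29b-3p and miR-29c-3p carry and miR-29a-3p does not, is found in 24 of the 1679 names (1.43%). In human cells that stretch has been described as shortening the life of miR-29b and miR-29c. The ending AGUGUU of miR-29b-3p, described in human cells as an element that directs it to the nucleus, is found in 2 of the 1679 names (0.119%).

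The mouse genome holds 4 miR-29 hairpins in 2 clusters, and their sequences are given with both mature strands in capitals because the clusters decide which reads can be assigned to which locus.
Mir29a: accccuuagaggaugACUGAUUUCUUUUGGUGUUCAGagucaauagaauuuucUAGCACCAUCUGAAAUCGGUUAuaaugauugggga
Mir29b-1: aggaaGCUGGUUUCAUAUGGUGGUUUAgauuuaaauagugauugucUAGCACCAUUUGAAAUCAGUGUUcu
Mir29b-2: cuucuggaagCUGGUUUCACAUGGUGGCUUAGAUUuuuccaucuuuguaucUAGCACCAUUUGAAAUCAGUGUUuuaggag
Mir29c: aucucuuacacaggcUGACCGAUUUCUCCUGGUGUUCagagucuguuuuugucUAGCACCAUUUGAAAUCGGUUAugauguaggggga
On GRCm38, Mir29a (chr6:31062660-31062747) and Mir29b-1 (chr6:31063023-31063093) lie on the minus strand with 275 bases between them. Mir29b-1 overlaps an exon of the long noncoding RNA gene Gm27019 by 2 bases, and no other annotated gene overlaps either hairpin. Mir29b-2 (chr1:195037040-195037120) and Mir29c (chr1:195037547-195037634) lie on the plus strand with 426 bases between them, inside an exon of the noncoding gene A330023F24Rik. On the opposite strand both also lie within an untranslated exon of Cd46. Mature miR-29b-3p is identical from both clusters, so its reads cannot be assigned to a locus. miR-29a stands for the chromosome 6 cluster and miR-29c for the chromosome 1 cluster.

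Assigned reads, summed over all entries, numbered 508182 for the control and 706860 for STZ. A read assigned to more than 1 entry would count more than once in these sums. Some entries have equal or nearly equal counts, as such double counting would give. miR-365a-3p and miR-365b-3p each had 30 control and 42 STZ reads. miR-199a-3p had 1471 and 2028 reads and miR-199b-3p 1470 and 2022 (chosen after their values were seen). A single read equalled 1.97 and 1.41 RPM, reads scaled to a library total of 1000000. A count of 0 allows up to 3 reads, or 5.90 control RPM and 4.24 STZ RPM. All intervals here are 95% intervals of counting error alone; reads were amplified by PCR, no molecular identifiers are described, and copies of a molecule are counted separately. The heart muscle miR-1-3p was the most abundant entry in both libraries, at 209319 and 252647 RPM. The 4 cardiomyocyte markers summed to 280496 control RPM and 315086 STZ RPM; miR-1-3p and miR-499-5p had ratios above 1 by their intervals, and miR-133a-3p and miR-208a-3p below.

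The miR-29 family was higher in the STZ library, and nearly all of it was miR-29a-3p. The human-named 3p strands summed to 4707 control reads (9262 RPM) and 9626 STZ reads (13618 RPM), an STZ to control ratio of 1.47 (1.42 to 1.52). Their share of reads was 0.926% (Wilson interval 0.900 to 0.953) and 1.36% (1.34 to 1.39). Each of the 3 strands was higher, by less than 2-fold.

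The human-named entry hsa-miR-29a-3p had 4427 reads (8711 RPM) in control mitochondria and 9117 reads (12898 RPM) after STZ. Its ratio was 1.48 (1.43 to 1.54), and it moved from rank 23 to rank 17 among named entries by level. Next came hsa-miR-29c-3p, with 149 reads (293 RPM, exact Poisson interval 248 to 344) and 279 reads (395 RPM, 350 to 444), a ratio of 1.35 (1.10 to 1.65). Its intervals in the 2 libraries do not overlap. The lowest of the 3, hsa-miR-29b-3p, had 131 reads (258 RPM, 216 to 306) and 230 reads (325 RPM, 285 to 370), a ratio of 1.26 (1.01 to 1.58). Its intervals overlap, and the lower bound of the ratio stood just above 1. None of the 3 reached 2-fold.

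**Figure D1:**
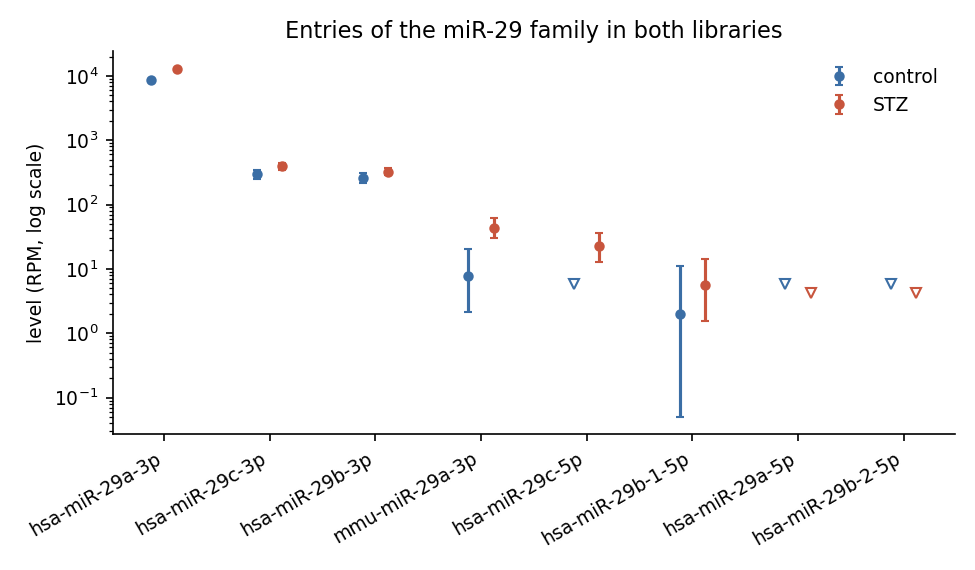
Level of each miR-29 entry (RPM, log scale) in the control and the STZ library, with exact Poisson 95% intervals; an open triangle marks the 3 reads that a count of 0 allows. miR-29a-3p stands at 8711 and 12898 RPM, above miR-29c-3p and miR-29b-3p, which lie between 258 and 395 RPM, and the 5p strands are near or at 0.

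Read against the 314 named miRNAs whose mean level reached 10 RPM, differences of this kind were common. Of those, 29.9% had an interval of the ratio above 1 and 35% an interval below 1. A 2-fold difference on the scale of log2(RPM + 1) was seen for 36.3%, with 17.8% higher and 18.5% lower in the STZ library. Most of these had low levels: of 56 higher and 58 lower, 4 and 9 had a mean of 100 RPM or more, the range in which the 3 main strands lie. That range reaches down to rank 149 of the named miRNAs by mean level, so 2-fold differences were less common in it than over all 314. The median log2 fold of the 314 was -0.02, against 0.57 for miR-29a-3p, 0.43 for miR-29c-3p and 0.33 for miR-29b-3p. Of the 8 family entries, 5 passed the minimum of 10 RPM, and nothing is read from the number called among them, since miR-29c-5p and the mouse-named miR-29a-3p passed it through the STZ library.

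miR-29a-3p stood near the top of the abundant miRNAs by ratio. Among the 67 named miRNAs whose reads in both libraries came to 1000 or more, 2 had a higher ratio, miR-218-5p at 1.97 (1.73 to 2.26), which is encoded in introns of Slit2 and Slit3, and miR-125b-5p at 1.70 (1.66 to 1.75). The median ratio of the 67 was 0.981, with quartiles of 0.834 and 1.13, and 35.8% had an interval above 1 and 43.3% below. Among the 45 miRNAs with 300 reads or more but under 1000, miR-29c-3p ranked 11 and miR-29b-3p ranked 12 by ratio. The median ratio there was 0.893, and 31.1% had an interval above 1.

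**Figure D2:**
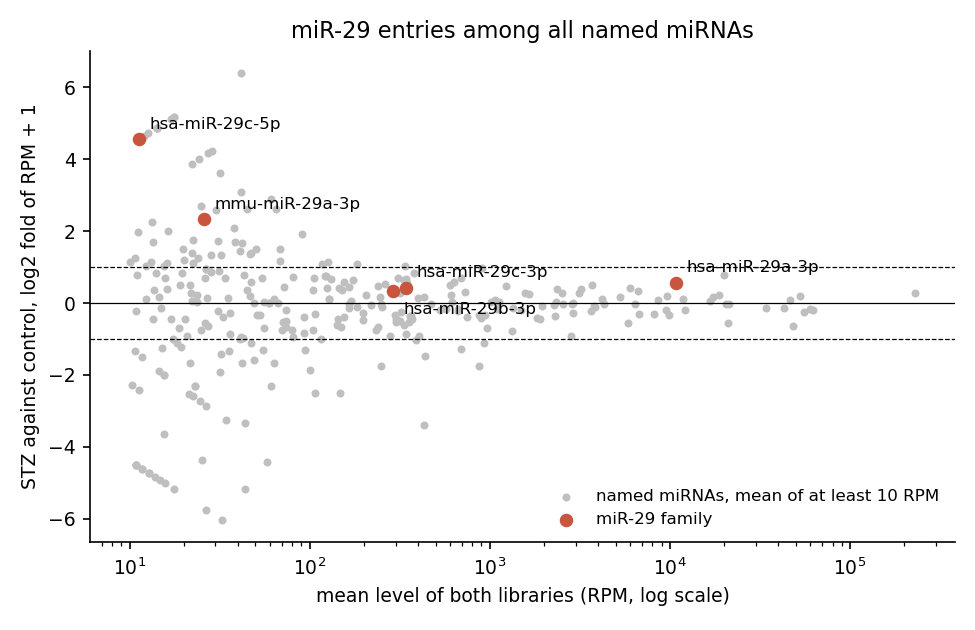
STZ against control difference (log2 fold of RPM + 1) plotted against mean level (RPM, log scale) for the 314 named miRNAs whose mean reached 10 RPM, with miR-29 entries in red and dashed lines at 2-fold. The 3 human-named 3p strands lie between 0.33 and 0.57, inside the dashed lines, and miR-29c-5p and the mouse-named miR-29a-3p, both with few reads, lie above them.

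As its own ratio implies, the family took a larger place in the STZ library relative to most of the other miRNAs compared, though not clearly to let-7c-5p. Summed 3p reads equalled 20.5% of those of miR-26a-5p in control mitochondria and 28.7% after STZ, a ratio of ratios of 1.40 (1.34 to 1.45). miR-26a-5p itself, encoded in introns of the Ctdsp phosphatase genes, had a ratio of 1.05 (1.04 to 1.07). Against miR-30d-5p, whose own ratio was 1.14 (1.12 to 1.16), the family's ratio of ratios was 1.29 (1.24 to 1.34). Against the cardiomyocyte miR-1-3p, higher in the STZ library itself, it was 1.22 (1.18 to 1.26), and against miR-133a-3p, another cardiomyocyte marker but lower there, 1.70 (1.63 to 1.76). Against miR-21a-5p the family's ratio of ratios was 1.69 (1.60 to 1.77). Against let-7c-5p it was 1.04 (0.970 to 1.12), an interval that includes 1. let-7c-5p is the abundant miRNA nearest to miR-29a-3p in ratio, at 1.41, so a value near 1 follows from that nearness. miR-29a-3p ranked 3 of 67 abundant miRNAs by ratio, so a value above 1 follows for most comparators. These comparisons therefore restate the ratios and are not separate support. They do not depend on how the libraries were scaled to each other.

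By the rule of nearest ratio among miRNAs with at least 1000 reads, those most like miR-29a-3p were let-7c-5p at 1.41 (lower bound 1.33), miR-128-3p at 1.40 (1.26 to 1.56) and let-7a-5p at 1.34 (1.28 to 1.41). Nearest to miR-29c-3p were let-7a-5p, let-7d-5p at 1.32 and miR-101-3p at 1.30. Nearest to miR-29b-3p were miR-27a-3p at 1.25, miR-101-3p and miR-378c at 1.22. Likeness rests here on 1 ratio between 2 libraries. Of the 6 neighbours in level, 2 had an interval above 1 like the family and 4 below. let-7g-5p, next above miR-29a-3p by mean level, had a ratio of 1.09 (1.05 to 1.12), and miR-22-3p, next below, one of 0.790 (0.762 to 0.819). miR-151b, next above miR-29c-3p, had a ratio of 1.48 (1.21 to 1.82), and miR-574-3p, next below, one of 0.544 (0.443 to 0.666). Around miR-29b-3p, miR-374b-5p stood at 0.791 (0.639 to 0.980) and miR-151a-3p at 0.523 (0.416 to 0.656).

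**Figure D3:**
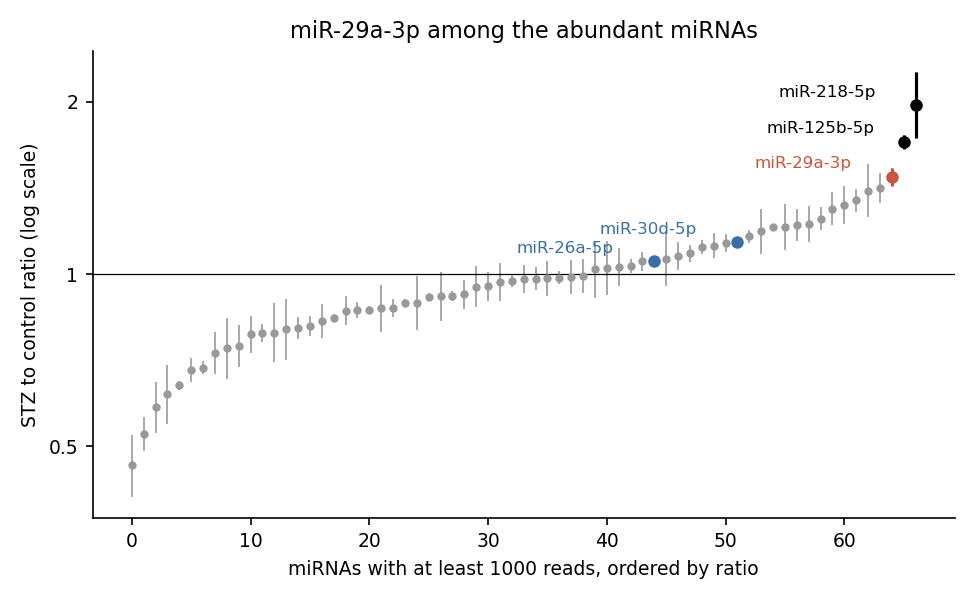
STZ to control ratio (log scale) with exact 95% counting intervals for the 67 named miRNAs with at least 1000 reads, ordered by ratio, with the control at 1. miR-29a-3p (1.48, red) lies below miR-218-5p and miR-125b-5p (black) and above all others, with miR-26a-5p and miR-30d-5p (blue) at 1.05 and 1.14.

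The mix of paralogs was close to equal in the libraries. miR-29a-3p made up 94.1% of the summed 3p reads in the control (Wilson interval 93.3 to 94.7) and 94.7% in the STZ library (94.2 to 95.1). miR-29c-3p made up 3.17% (2.70 to 3.71) and 2.90% (2.58 to 3.25), and miR-29b-3p 2.78% (2.35 to 3.29) and 2.39% (2.10 to 2.71). For every paralog the interval of the odds ratio between libraries included 1: 0.971 to 1.32 for miR-29a-3p, 0.743 to 1.13 for miR-29c-3p and 0.685 to 1.07 for miR-29b-3p. These intervals leave room for shifts of the size shown, so an equal mix was not established.

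Between the clusters, miR-29a-3p of the chromosome 6 cluster had 29.7 reads for each read of miR-29c-3p of the chromosome 1 cluster in the control (exact interval 25.2 to 35.2) and 32.7 in the STZ library (upper bound 36.9). The odds ratio was 1.10 (0.892 to 1.35). miR-29a-3p had 33.8 reads for each read of miR-29b-3p for the control (28.4 to 40.5) and 39.6 for the STZ library (34.8 to 45.4), although Mir29a and Mir29b-1 lie in the same cluster. These odds differed by 1.17 (0.936 to 1.46). The order of miR-29c-3p over miR-29b-3p was not distinguishable from equality in the control, at 1.14 (0.893 to 1.45), and in the STZ library it was 1.21 (1.02 to 1.45). The odds ratio between the libraries, 1.07, had an interval of 0.787 to 1.44 that includes 1. Read numbers of different miRNAs also carry the preferences of adapter ligation for particular ends, which were not measured here. The mismatches allowed in mapping are not given either. How many reads of miR-29a-3p were assigned to miR-29c-3p, which differs from it by C10U alone, is therefore not known.

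The 5p strands, usually discarded, had few reads or none. Listed at 0 in both libraries were miR-29a-5p, from the hairpin that supplies most of the family, and miR-29b-2-5p. For miR-29a a count of 0 allows a 5p share of up to 0.0678% of 4427 control reads and 0.0329% of 9117 STZ reads. miR-29b-1-5p, which marks the chromosome 6 copy of miR-29b, had 1 control read and 4 STZ reads. Its ratio of 2.88 had an interval of 0.285 to 142, which is not informative at this depth. The 5p share of miR-29b, with both 5p strands summed, was 0.758% (Wilson interval 0.134 to 4.17) and 1.71% (0.667 to 4.31).

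miR-29c-5p was the exception, seen in the STZ library alone. It is shown because its seed, in capitals, differs from that of the 3p strands and is carried by no other mature mouse miRNA in the RefSeq table.
miR-29c-5p: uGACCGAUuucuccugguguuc
The control held 0 reads of it and the STZ library 16 (22.6 RPM, exact Poisson interval 12.9 to 36.8). That level is 3.83-fold higher when the control is set to 3 reads, without counting error on the STZ reads. The exact lower bound of the ratio was 2.77. Of the reads of both miR-29c arms in the STZ library, 5.42% (3.37 to 8.63) were 5p, 16 of 295, while 0 of 149 in the control allows a share of up to 2.01%. The odds ratio of the arms had an exact lower bound of 2.02. Such differences were frequent: of 62 precursor names with at least 100 reads on both arms together and any read on the minor arm, 30.6% had an interval above 1 in favour of the minor arm in the STZ library. In 9 of the 62 the minor arm was at 0 in the control alone, and in 5 at 0 in the STZ library alone, the more shallowly read library being the control.

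**Figure D4:**
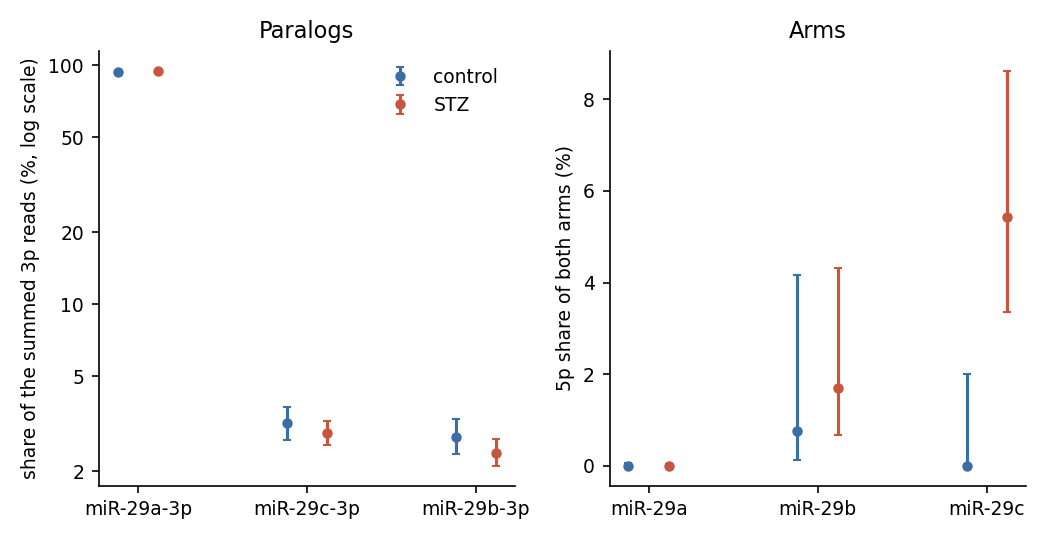
Left, share of each paralog in the summed 3p reads (%, log scale); right, share of 5p reads among both arms (%, linear scale), each for the control and the STZ library with Wilson 95% intervals, or up to the limit of 3 reads where the count was 0. Paralog shares lie close together at 94.1% and 94.7% for miR-29a-3p, and the 5p share of miR-29c is 0 without and 5.42% with STZ.

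The mouse-named entry of miR-29a-3p was small beside its human-named counterpart and differed more. Its 4 control reads (7.87 RPM) stood against 31 STZ reads (43.9 RPM), 5.57 times the control level (1.97 to 21.7). It held 0.0903% of the reads of that name among control reads and 0.339% among STZ reads, with an odds ratio of 3.76 (1.33 to 14.7). Summing both names left the ratio of miR-29a-3p at 1.48 (1.43 to 1.54). Of 75 names listed under both species, 7 had reads under each name and at least 1000 reads in all. In 42.9% of these the mouse name took a larger share in the STZ library by its interval, namely miR-29a-3p, let-7c-5p and miR-92a-3p (chosen after their values were seen), and in 2 a smaller one. What separates reads of the mouse name from those of the human name is not given in the sources used here.

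Other miRNAs known from heart fibrosis went both ways. Of a list of 18, 17 reached the minimum level, 6 had an interval above 1, 8 below and 3 including it, beside 29.9% above and 35% below over all 314. The list had a median log2 fold of -0.20 beside -0.02 for all 314. The list holds 8 miRNAs described as promoting fibrosis, of which 4 had an interval above 1 and 3 below, and 10 described as restraining it, of which 9 were measured, 2 above and 5 below. Each member was counted by 1 entry. miR-155-5p counted as above 1 by its human name, at 1.61 (1.15 to 2.28) with 51 and 114 reads. Its mouse-named entry went the other way, at 0.458 (0.252 to 0.815) with 33 and 21 reads, and was named after its values were seen. miR-21a-5p, which is induced in fibroblasts of failing hearts, had 5178 and 6283 reads and a ratio of 0.872 (0.841 to 0.905). miR-133a-3p and miR-30c-5p, both described as limiting connective tissue growth factor, stood at 0.866 (0.854 to 0.879) and 0.912 (0.896 to 0.928). The paired miR-199a-5p and miR-214-3p, expressed from a shared antisense transcript in fibroblasts, stood at 1.17 (1.00 to 1.36) and 1.56 (1.17 to 2.11). On the scale of log2(RPM + 1) the only member at least 2-fold apart was miR-18a-5p, with 5 and 15 reads and an interval of its ratio that included 1 (0.745 to 7.59). miR-208a-3p, encoded in the myosin gene Myh6, missed 2-fold on that scale, with 78 and 54 reads and a ratio without pseudocount of 0.498 (0.345 to 0.713); both were named after their values were seen.

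Summed levels of markers of other cells are given beside the family. The fibroblast markers (3 of 3 measured) summed to 3591 control RPM and 3735 STZ RPM, a ratio of sums of 1.04, with 2 intervals above 1 and 1 including it, beside 29.9% above over all 314. Endothelial markers (2 of 2) had 66130 and 43490 RPM, smooth muscle markers (2 of 2) 61769 and 51920, erythroid markers (3 of 3) 12824 and 9316, and leukocyte markers (3 of 3) 577 and 473. Both endothelial, both smooth muscle and 2 of the 3 erythroid markers had an interval below 1. Of the leukocyte markers only miR-223-3p did, at 0.692 (0.569 to 0.842), beside 35% below over all 314; the intervals of the others included 1, with miR-142-5p at 1.29 (0.947 to 1.76). Liver-enriched miR-122-5p had 787 and 73.6 RPM. None of the marker lists was at 0. The part of these differences in the family's ratio was not tested. In bulk libraries of mitochondria, fewer cells of a type, less RNA per cell and less RNA carried along in the preparation cannot be told apart.

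The collagen messages after which the family is known hold its seed match more often than messages in general, by count and per length; the difference is a description and was not tested. In mouse annotation (GENCODE vM21, build GRCm38, longest annotated 3′ untranslated region of each gene), 16 of 44 collagen genes (36.4%) hold the 8-base match TGGTGCTA, against 2.79% of 20481 protein-coding genes. Counting also matches of 7 bases, which lack either the first T or the final A, 27 collagen genes (61.4%) hold at least 1, against 15.9% of all genes. Per 1000 bases there are 0.835 matches in collagen genes and 0.136 in all genes, with median region lengths of 1032.5 and 947 bases. Only the strand of the message was searched. Matches are a description of letters, and no message level or binding was measured in these libraries.

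Matches in the messages of the main fibrillar collagens of heart scar are shown with the seed match in capitals, as 22 bases of message sequence that end opposite the first base of the miRNA.
Col1a1: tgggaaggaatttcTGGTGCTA
Col1a2: tgcttgcaacacaaaGGTGCTA
Col3a1: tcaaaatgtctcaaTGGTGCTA
Coordinates are those of the 22 bases shown, and positions after the stop codon are those of the match at their end. The Col1a1 match (within chr11:94952524-94952545, plus strand) begins at base 919 after the stop codon and is 1 of 3 in that region of 1423 bases. Col1a2 has 1 match (within chr6:4541163-4541184, plus strand), at base 516 of 882. The Col3a1 match (within chr1:45348968-45348989, plus strand) is at base 235 of 959 and is 1 of 2. The basement membrane gene Col4a5 holds 3 of the 8-base matches, and Col5a1, Col4a3 and Col26a1 hold 4 matches of any kind each.

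**Figure D5:**
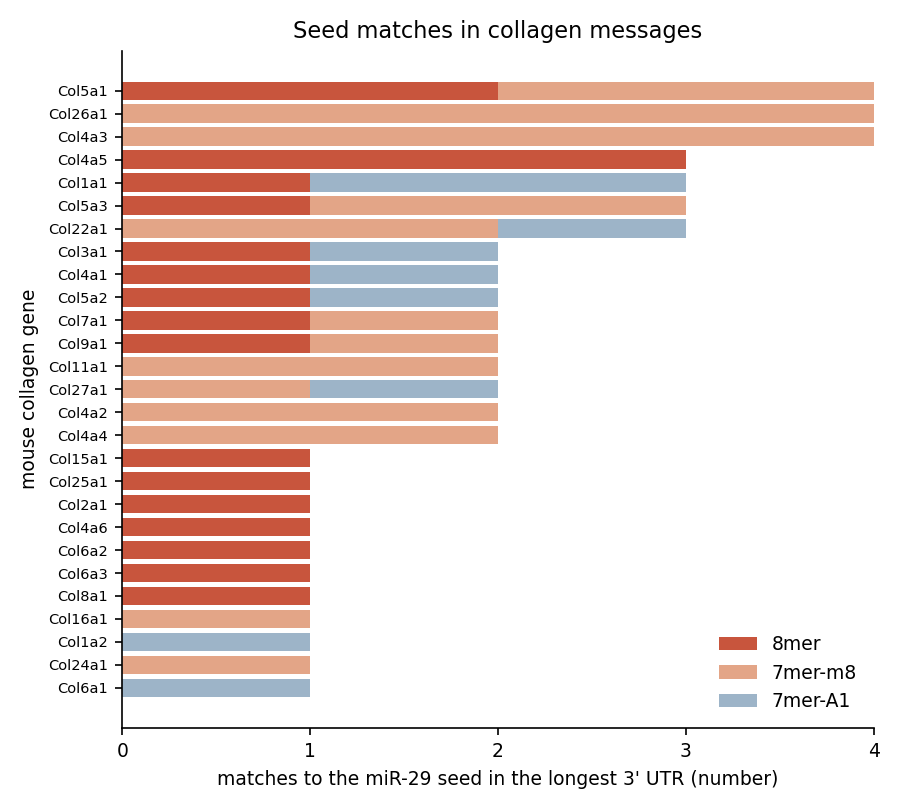
Number of matches to the miR-29 seed in the longest 3′ untranslated region of the 27 mouse collagen genes with at least 1 match, by kind of match (8mer is TGGTGCTA, 7mer-m8 lacks its final A, and 7mer-A1 lacks its first T). Counts run from 1 to 4, and 16 of the genes have an 8mer.

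Because the libraries come from mitochondria and the study concerns translation there, the messages encoded by mitochondrial DNA were searched for the same letters. None of the 13 protein-coding mitochondrial messages, 11403 bases in all, holds the 8-base match or either 7-base match. That says only that these letters are not in these messages, and pairing outside the seed was not searched.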

How the data were processed

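Small RNA from heart mitochondria was sequenced from 1 control and 1 STZ mouse library. Per the labels' protocols, adapters were ligated to both ends of total RNA and the product was amplified by PCR. Per the submitters' processing notes, GRCm39 was the genome build; for the aligner, miRNA reference, trimming and mismatches the sources used here give nothing. The deposited signal was scaled by the authors so that all listed entries sum to 1000000 (RPM). A subtotal without a name, equal to 96.5% and 96.6% of the library totals, was left out.

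All values (100.0%, within 0.001 of a read) were whole multiples of 1 read, and reads were recovered from them. Ratios have exact conditional binomial (Clopper-Pearson) intervals, shares Wilson intervals, levels exact Poisson intervals, and odds ratios exact conditional intervals. A test on the recovered reads (edgeR's quasi-likelihood test) could not be fitted with 1 library per group; by intervals, 94 named miRNAs were higher and 110 lower. Calls used a 2-fold difference of log2(RPM + 1), which understates low entries.

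Named miRNAs were all family members, the fibrosis list by count with 5 of its members by value, miR-26a-5p and miR-30d-5p, the 3 nearest ratios and the neighbours in level of each 3p strand; others are marked as chosen after their values were seen, or head an order (miR-218-5p, miR-125b-5p). The members and lists were chosen with earlier results of these data known. Mouse list names were matched to human-named entries after the files were seen, and the collagen genes and motifs were also chosen then (genes on mouse chromosome 18 are not analysed here). RefSeq sequences (GRCm38.p6) matched all 4 hairpins. Coordinates are on GRCm38, not the authors' build. Scaling alternatives used TMM (edgeR 4.0.16) and the median of ratios (DESeq2 1.42.0). Python 3.11.15, scipy 1.17.1, pandas 2.3.3, numpy 2.4.6, matplotlib 3.10.9 and R 4.3.3 were used.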

Additional observations from a re-analysis of the deposited data

How the results depend on the processing

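No paired analysis was possible because the control and STZ groups hold 1 library each, and for the same reason no library could be left out. Under TMM, the median of ratios, totals without the 10 most abundant miRNAs and totals without miR-29, the ratio of the summed 3p strands ranged from 1.46 to 1.48, that of miR-29a-3p from 1.47 to 1.49, miR-29c-3p from 1.34 to 1.35 and miR-29b-3p from 1.26 to 1.27. The interval of miR-29b-3p kept a lower bound just above 1, the lowest being 1.009. Without miR-29a-3p the family ratio was 1.31 (1.13 to 1.52). The 56 higher and 58 lower miRNAs of the background numbered 26 and 32 when 4-fold was required. At a minimum of 100 RPM 4 and 9 were left, and without any minimum there were 143 and 123. The log2 fold of the mouse-named miR-29a-3p was 2.34 with a pseudocount of 1 RPM and 1.59 with 10, and that of miR-29c-5p 4.56 and 1.71. In all, 52 of 59 alternatives stayed within counting error or 1.5 times the count, and 0 changed direction. For most of them the direction could not have changed. The scalings moved log2 ratios by 0.009 or less, a pseudocount cannot change a sign, and background counts have no direction. The tally is therefore not a test of robustness. With 0 to 16 reads per library, the 5p strands are limited by depth.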
